A study of Mus musculus with 69 samples.

Results

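The 10 genes described here, Slc12a3, Pvalb, Trpm6, Trpv5, Calb1, Slc8a1, Wnk1, Wnk4, Stk39 and Klhl3, are known markers and regulators of the distal convoluted tubule and the connecting tubule, the nephron segments between the thick ascending limb and the collecting duct. They were taken by symbol from a table of 24411 mouse genes. All 10 were found, and all 10 were among the 21175 genes tested. The study labelled RNA in chosen kidney cells. Mice carried a Cre-dependent Uprt gene (UPRTf/+, from Toxoplasma gondii, in the Rosa26 locus) together with Hoxb7Cre, which acts along the collecting duct, or Atp6v1b1Cre (Atp6b1v1Cre in the sample labels), which acts in intercalated cells and in cells with both intercalated and principal features. Uprt lets a cell build injected 4-thiouracil into newly made RNA, which was then biotinylated and pulled down from whole kidney RNA. All 69 libraries came from kidneys taken 4 hours after 430 mg/kg of 4-thiouracil.

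The controls gave 21 libraries of total kidney RNA (10 from Hoxb7Cre;UPRTf/+ mice and 11 from Atp6b1v1Cre;UPRTf/+ mice), 10 Hoxb7Cre pulldowns and 11 Atp6v1b1Cre pulldowns, from both sexes. Control mice were 5.5 months old except for 2 female Hoxb7Cre and 3 male Atp6v1b1Cre pulldowns, and as many total RNA libraries, from mice of 3 months. Injured mice were 5.5 months old. Ischemia (iAKI in the labels) was a 10-minute clamp of both renal pedicles 24 hours earlier, and volume depletion (vAKI) was 72 hours without water and food. Ischemia gave 7 Hoxb7Cre and 6 Atp6v1b1Cre pulldowns, and volume depletion gave 7 of each driver. Libraries held 12618062 to 30305464 counts. Levels are given as CPM (counts per 1000000 counts) after TMM scaling, which fits 1 factor per library, and a difference passed where the adjusted p of edgeR's quasi-likelihood test (Benjamini-Hochberg over all genes tested) was under 0.05. Fold changes are log2 values, and the value after ± is their standard error (SE). The study gives as many mice as libraries for the male injury comparisons and calls the control libraries independent RNA samples, but no label names the mouse of a library, so p-values measure the spread between libraries. Each library held the RNA of many cells, and in it fewer cells of a type and less RNA per cell cannot be told apart.

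The distal convoluted tubule reabsorbs sodium chloride through the thiazide-sensitive cotransporter NCC, and it sets urinary magnesium through an apical magnesium channel. The late distal convoluted tubule and the connecting tubule carry calcium across the cell in sequence, through an apical channel, a cytosolic calcium-binding protein and basolateral extrusion. NCC is switched on by a kinase cascade: WNK kinases phosphorylate SPAK, SPAK phosphorylates NCC, and a ubiquitin ligase adaptor removes the WNK kinases. Cells of the connecting tubule grade into collecting duct cells and include intercalated cells. The control comparisons set RNA of these segments in each pulldown against total kidney RNA and against the other driver. Pulldowns hold newly made RNA, and total RNA was not selected for it. The paper cautions that labelled RNA may reflect faster turnover of a transcript, and that uracil-rich RNA may be overrepresented. In a dot blot, the paper found far less labelled RNA in kidneys without Cre, which gives no value per gene. No pulldown library came from mice without Cre, so the RNA of each gene captured without Cre was not measured. A difference from total RNA therefore does not by itself show the segment of origin. The parts of turnover and uracil content were not tested.

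In GRCm38 coordinates, the transport genes lay at chr8:94329201-94366214 (Slc12a3, plus strand), chr19:18749983-18892511 (Trpm6, plus), chr6:41652173-41680769 (Trpv5, minus) and chr17:81373105-81738377 (Slc8a1, minus). The genes of the calcium-binding proteins lay at chr4:15881264-15908064 (Calb1, plus) and chr15:78191114-78206400 (Pvalb, minus). The regulators lay at chr6:119923969-120038672 (Wnk1, minus), chr11:101260567-101277409 (Wnk4, plus), chr2:68210445-68472268 (Stk39, minus) and chr13:58000228-58113592 (Klhl3, minus). Each is annotated as protein coding. Wnk4 shares 306 exon bases with Gm11615 on the opposite strand (7.377% of its exon bases), and Slc8a1 shares 296 with AC122399.1 (1.574%) and 8 with Gm11096 (0.043%). Counts are per gene, so the kidney-specific short form of Wnk1 could not be separated from the full-length kinase.

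Promoters are shown for Slc12a3, Trpv5 and Wnk4, because after volume depletion these genes were lower in the male pulldowns of both drivers. Calb1 was lower in both as well, but no promoter was found for it. Each promoter shown is RefSeq sequence of GRCm38.p6 from 250 bases before to 50 bases after an annotated transcription start, read 5′ to 3′ along the gene, with TATAAA in capitals.
Slc12a3 (chr8:94328958-94329257, plus strand): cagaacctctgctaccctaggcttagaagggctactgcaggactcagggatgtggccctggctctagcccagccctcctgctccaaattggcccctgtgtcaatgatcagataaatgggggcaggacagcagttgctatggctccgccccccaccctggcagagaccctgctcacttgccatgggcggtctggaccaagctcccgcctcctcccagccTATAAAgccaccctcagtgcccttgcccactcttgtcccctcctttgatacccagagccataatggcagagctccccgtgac
Trpv5 (chr6:41680674-41680973, minus strand): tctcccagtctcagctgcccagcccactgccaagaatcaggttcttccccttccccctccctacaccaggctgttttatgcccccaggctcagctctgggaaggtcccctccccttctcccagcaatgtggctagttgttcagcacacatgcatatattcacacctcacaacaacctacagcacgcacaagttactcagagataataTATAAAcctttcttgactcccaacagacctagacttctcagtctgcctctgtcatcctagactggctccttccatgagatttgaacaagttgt
Wnk4 (chr11:101260317-101260616, plus strand): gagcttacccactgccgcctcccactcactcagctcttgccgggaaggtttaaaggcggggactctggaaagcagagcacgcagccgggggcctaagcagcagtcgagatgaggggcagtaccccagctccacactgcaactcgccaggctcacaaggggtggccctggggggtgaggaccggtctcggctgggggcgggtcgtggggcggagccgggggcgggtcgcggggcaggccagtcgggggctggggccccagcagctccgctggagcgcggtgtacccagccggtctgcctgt
TATAAA lay 32 bases before the start of Slc12a3 and 43 bases before that of Trpv5, and the Wnk4 window held no match. The windows were searched on both strands for TATAAA, whose reverse complement reads TTTATA, and for TGTTCT, the core of steroid hormone response elements, whose reverse complement reads AGAACA. No match overlapped another. Of 32851 mouse promoters of the same 300 bases, 13.6% held TATAAA, 19.0% held TGTTCT and 7.1% held GTTAAT. Of the 10 windows found for 9 of the 10 genes, only those of Slc12a3 and Trpv5 held TATAAA, and none held GTTAAT. The Pvalb window at chr15:78204188-78204487 held AGAACA 39 bases after its start, and the other Pvalb window held no match. A match is a description of the letters in the window.

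In total kidney RNA of controls, Slc12a3 was the highest of the 10 genes per length of transcript, with a median of 321 CPM per kilobase over 21 libraries. Calb1 followed at 143, then Wnk1 at 71.6, Wnk4 at 64.2, Pvalb at 56.97, Stk39 at 18.4, Slc8a1 at 11.5, Trpv5 at 6.01, Trpm6 at 3.89 and Klhl3 at 3.03. The ranges of neighbours in this order overlapped, except for Pvalb and Stk39. The order was different in the pulldowns. Wnk1 was highest with both drivers, at 179.5 CPM per kilobase with Hoxb7Cre and 216 with Atp6v1b1Cre, followed by Wnk4 at 88.5 and 108.8, Slc12a3 at 83.1 and 106.3 and Calb1 at 49.9 and 67.1. Pvalb was last in both, at 1.95 and 2.14. Trpv5 had 5.10 CPM per kilobase with Hoxb7Cre, where 7 of the 10 genes were higher, and 12.1 with Atp6v1b1Cre, where 6 were.

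**Figure D1:**
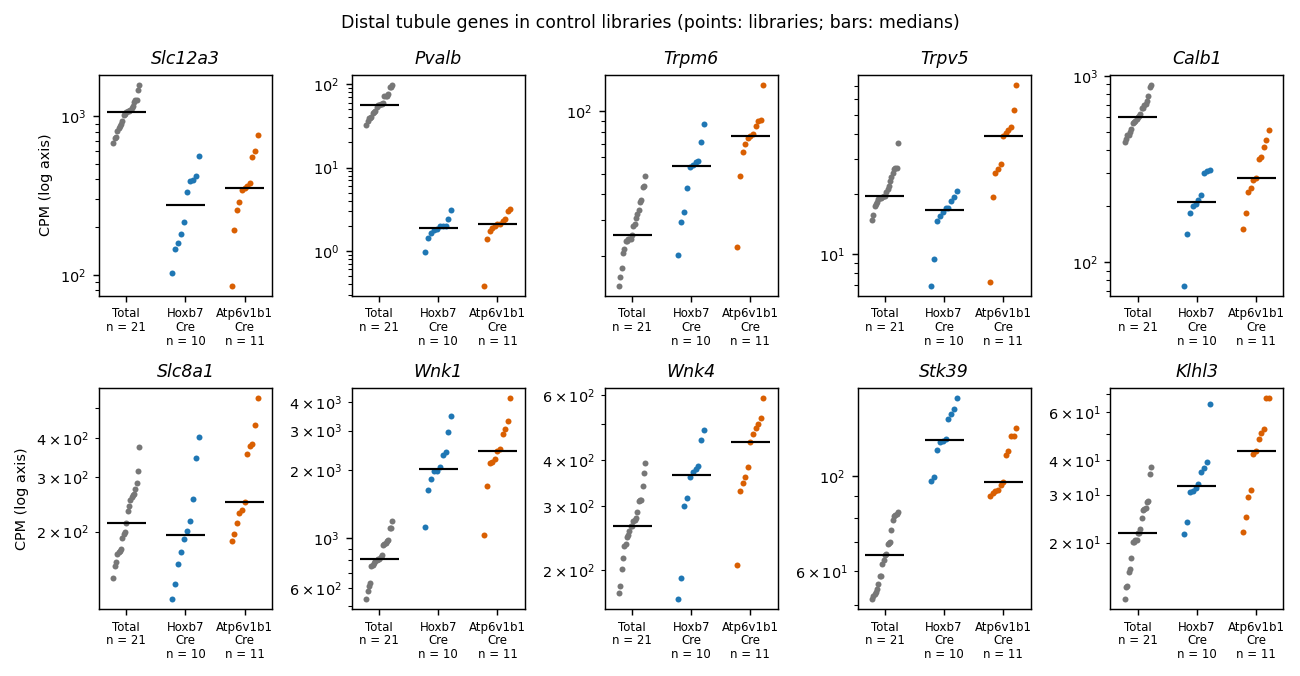
Level of each of the 10 genes in the 42 control libraries, in CPM on a log axis that differs between panels. Points are libraries of total kidney RNA, Hoxb7Cre pulldown and Atp6v1b1Cre pulldown, and bars are medians: Pvalb has medians of 55.7 CPM in total RNA and of 1.91 and 2.09 CPM in the pulldowns, and Wnk1 of 812, 2034 and 2442 CPM.

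The pulldowns were first set against total kidney RNA. Both comparisons use the same 21 total RNA libraries. For each driver the total RNA and pulldown libraries match in number by sex and age, the labels do not say whether they came from the same mice, and the test treats them as independent. With Hoxb7Cre 9 of the 10 genes passed, 5 higher and 4 lower, and with Atp6v1b1Cre all 10 passed, 7 higher and 3 lower. With library totals in place of TMM the split was 6 higher and 3 lower with Hoxb7Cre and the same with Atp6v1b1Cre, and the median over all genes shifted from 0.107 to 0.472 on the log2 scale with Hoxb7Cre and to 0.498 with Atp6v1b1Cre. Among all genes tested, 66.6% passed with Hoxb7Cre and 63.8% with Atp6v1b1Cre, so most genes of any kind differed between pulldown and total RNA. The median log2 fold change of the 10 genes was 0.19 with Hoxb7Cre and 0.73 with Atp6v1b1Cre, against 0.11 over all genes in each. In 4 of the 10 genes the Hoxb7Cre and total RNA libraries did not overlap, against 25.9% of all genes, and in 2 of the 10 the Atp6v1b1Cre and total RNA libraries did not, against 24.1%.

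Of the genes of the distal convoluted tubule, Pvalb and Slc12a3 were lower in both pulldowns and Trpm6 was higher. Pvalb, which encodes parvalbumin, a calcium buffer of the early distal convoluted tubule, had 31.98, 55.7 and 98.9 CPM (lowest, median and highest) in total RNA, 0.969, 1.91 and 3.14 in the Hoxb7Cre pulldown and 0.383, 2.09 and 3.14 in the Atp6v1b1Cre pulldown. Every pulldown library lay below every total RNA library. The log2 fold change against total RNA was -4.94 ± 0.21 (adjusted p = 7.34e-25) with Hoxb7Cre and -4.74 ± 0.20 (adjusted p = 4.24e-25) with Atp6v1b1Cre, or 30.7-fold and 26.7-fold lower. Slc12a3, which encodes NCC, had 680.2, 1058 and 1587 CPM in total RNA, 102.3, 274 and 565 with Hoxb7Cre and 85.3, 351 and 757 with Atp6v1b1Cre. The Hoxb7Cre libraries lay below all total RNA libraries, and only the highest Atp6v1b1Cre library reached into the total RNA range. Its log2 fold change was -1.79 ± 0.24 (adjusted p = 6.51e-09) with Hoxb7Cre and -1.39 ± 0.23 (adjusted p = 5.62e-07) with Atp6v1b1Cre. Trpm6, the apical magnesium channel of the same segment, had 14.4, 25.3 and 48.7 CPM in total RNA, 20.3, 54.7 and 86.8 with Hoxb7Cre and 22.2, 75.8 and 135 with Atp6v1b1Cre, with groups that overlapped, and rose by 0.84 ± 0.18 (adjusted p = 4.69e-05) and 1.50 ± 0.17 (adjusted p = 9.86e-11) on the log2 scale.

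The calcium genes did not move as a block. Calb1, which encodes calbindin-D28k, the calcium ferry of the connecting tubule, had 442, 603 and 899 CPM in total RNA, 74.9, 211 and 311 with Hoxb7Cre and 150.4, 283 and 514 with Atp6v1b1Cre. Its Hoxb7Cre libraries lay below all total RNA libraries, and it was lower with both drivers, with log2 fold changes of -1.48 ± 0.17 (adjusted p = 1.58e-10) and -0.91 ± 0.16 (adjusted p = 2.51e-06). Trpv5, the apical calcium channel, had 14.8, 19.5 and 36.1 CPM in total RNA, 6.91, 16.5 and 20.6 with Hoxb7Cre and 7.18, 39.1 and 70.96 with Atp6v1b1Cre, and all 3 groups overlapped. It was lower than total RNA with Hoxb7Cre, at -0.44 ± 0.19 (adjusted p = 0.0349), and higher with Atp6v1b1Cre, at 0.81 ± 0.17 (adjusted p = 7.3e-05). With libraries left out 1 at a time, the Hoxb7Cre difference did not pass without Hoxb7Cre control replicates 6 or 9 or total RNA replicate 6 (adjusted p = 0.0561 to 0.0871), and with library totals in place of TMM it was -0.05 (adjusted p = 0.843). It also did not pass in males alone, at -0.13 (adjusted p = 0.718), or in the fit of all 69 libraries, at -0.49 (adjusted p = 0.0514). Slc8a1, the sodium-calcium exchanger that extrudes calcium on the basolateral side, had 142, 213 and 376 CPM in total RNA, 121, 195 and 405 with Hoxb7Cre and 186, 249 and 541 with Atp6v1b1Cre. Its log2 fold change was 0.01 ± 0.17 (adjusted p = 0.954) with Hoxb7Cre (95% interval -0.32 to 0.35), or 0.40 (adjusted p = 0.0243) with library totals, and 0.56 ± 0.16 (adjusted p = 0.00236) with Atp6v1b1Cre.

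The 4 regulators of NCC were higher in both pulldowns. Stk39, which encodes SPAK, had 51.5, 65.2 and 82.4 CPM in total RNA, 97.3, 122 and 153 with Hoxb7Cre and 89.7, 96.98 and 130.02 with Atp6v1b1Cre, so that all pulldown libraries lay above all total RNA libraries. Its log2 fold change was 0.95 ± 0.07 (adjusted p = 4.54e-17) with Hoxb7Cre and 0.77 ± 0.07 (adjusted p = 3.35e-14) with Atp6v1b1Cre. Wnk1 had 539, 812 and 1196 CPM in total RNA, 1124, 2034 and 3494 with Hoxb7Cre and 1032, 2442 and 4192 with Atp6v1b1Cre. The groups touched only at their ends, and the gene rose by 1.39 ± 0.13 (adjusted p = 1.09e-12) and 1.65 ± 0.13 (adjusted p = 2.35e-15). Wnk4, the WNK kinase most closely tied to the distal convoluted tubule, had 174, 264 and 392 CPM in total RNA, 167, 364 and 481 with Hoxb7Cre and 207, 448 and 589 with Atp6v1b1Cre, with wide overlap, and rose by 0.36 ± 0.14 (adjusted p = 0.0165) and 0.70 ± 0.13 (adjusted p = 7.22e-06). With Hoxb7Cre it did not pass without Hoxb7Cre control replicates 1 or 8 (adjusted p = 0.0512 to 0.06). Nor did it pass in females alone, at 0.22 (adjusted p = 0.365), in mice of 5.5 months alone, at 0.27 (adjusted p = 0.108), or with a replicate block, at 0.10 (adjusted p = 0.618). Klhl3, the ligase adaptor that marks WNK kinases for removal, had 12.4, 21.6 and 37.8 CPM in total RNA, 21.6, 32.3 and 64.4 with Hoxb7Cre and 21.9, 43.3 and 67.8 with Atp6v1b1Cre. It rose by 0.63 ± 0.16 (adjusted p = 0.000409) and 1.06 ± 0.15 (adjusted p = 3.31e-08), with groups that overlapped.

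**Figure D2:**
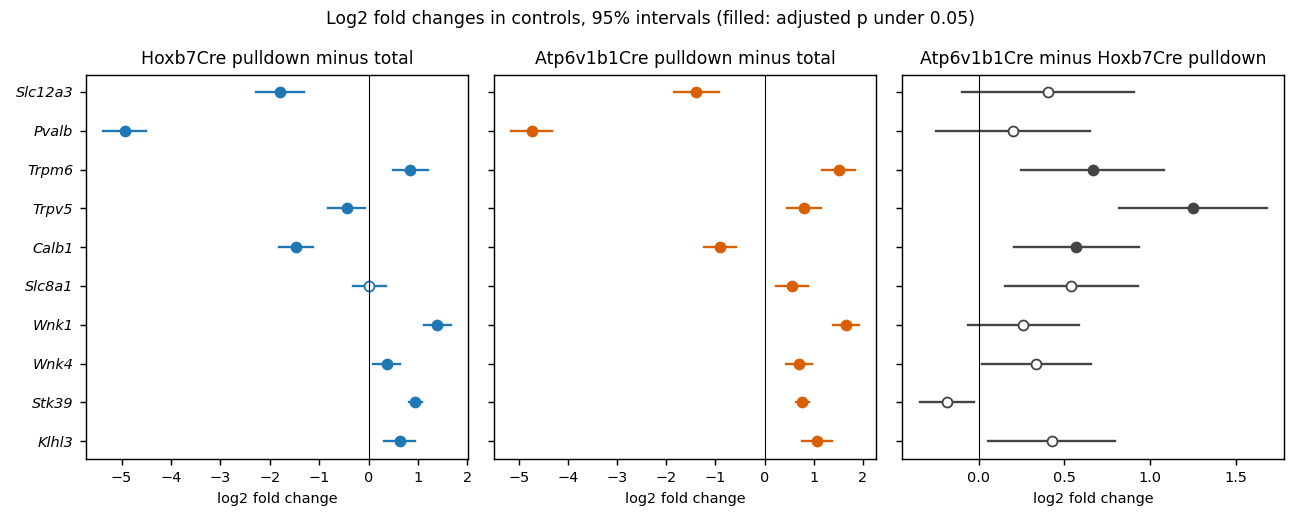
Log2 fold change of each gene in control pulldowns against total kidney RNA (left and middle) and between the pulldowns (right), with 95% intervals; filled points passed at an adjusted p under 0.05. Trpv5 lies below 0 with Hoxb7Cre (-0.44, or -0.05 and not passing with library totals in place of TMM) and above 0 with Atp6v1b1Cre (0.81), and it has the largest difference between the drivers of these 10 genes, 1.25.

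The drivers were then compared directly, in the 11 Atp6v1b1Cre and 10 Hoxb7Cre control pulldowns. Trpv5, Trpm6 and Calb1 were higher with Atp6v1b1Cre and none of the 10 genes was lower. Of all genes tested 9.93% passed, and 5.73% passed as higher with Atp6v1b1Cre. Trpv5 was 2.38-fold higher, with a log2 fold change of 1.25 ± 0.21 (adjusted p = 2.34e-05), and 9 of the 11 Atp6v1b1Cre libraries lay above all 10 Hoxb7Cre libraries. Trpm6 was 1.58-fold higher, at 0.66 ± 0.21 (adjusted p = 0.029), and Calb1 1.48-fold, at 0.57 ± 0.18 (adjusted p = 0.0337), both with groups that overlapped widely. Slc8a1 gave 0.54 ± 0.19 (adjusted p = 0.066) and Klhl3 0.43 ± 0.18 (adjusted p = 0.158). Slc12a3 and Pvalb had intervals that held 0, with 0.40 ± 0.25 (adjusted p = 0.394) for Slc12a3 (95% interval -0.10 to 0.91) and 0.20 ± 0.22 (adjusted p = 0.696) for Pvalb (-0.25 to 0.65). Wnk1 gave 0.26 ± 0.16 (adjusted p = 0.395), Wnk4 0.34 ± 0.16 (adjusted p = 0.207) and Stk39 -0.18 ± 0.08 (adjusted p = 0.157).

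The Trpv5 difference also passed in all 14 alternatives of processing and sample choice, with log2 fold changes from 0.92 to 1.54, and with any 1 library left out. The sample descriptions number the libraries in 3 separate runs, and within them the mean log2 difference of Trpv5 was 1.27, 1.27 and 0.80. It was 0.84, 0.67 and 0.32 for Trpm6 and 0.11, 0.90 and 0.70 for Calb1. The runs held 4, 3 and 4 Atp6v1b1Cre and 3, 5 and 2 Hoxb7Cre libraries, and these means were not adjusted for sex or age. In the third run all but 1 of the Atp6v1b1Cre libraries came from males of 3 months, and the Hoxb7Cre libraries from older females. There the driver cannot be separated from sex and age. Trpm6 and Calb1 each passed in 9 of the 14 alternatives. In males alone Trpm6 gave 0.50 (adjusted p = 0.272) and Calb1 0.17 (adjusted p = 0.714), and Stk39 passed as lower with Atp6v1b1Cre, at -0.36 (adjusted p = 0.0151). In females alone Trpm6 gave 0.79 (adjusted p = 0.168), Calb1 0.95 (adjusted p = 0.03) and Stk39 -0.07 (adjusted p = 0.817), and the difference between the sexes was not tested. Trpm6 did not pass without Atp6v1b1Cre control replicates 8 or 10 or Hoxb7Cre control replicates 3, 6 or 9 (adjusted p = 0.0502 to 0.0799), and Calb1 did not pass without Atp6v1b1Cre control replicates 8, 10 or 16 or Hoxb7Cre control replicates 1, 5, 6, 9 or 10 (adjusted p = 0.0522 to 0.0892). Slc8a1 passed without Atp6v1b1Cre control replicates 7, 12 or 15 or Hoxb7Cre control replicates 1 or 2 (adjusted p = 0.0147 to 0.0437), and Stk39 passed as lower without Hoxb7Cre control replicate 6 (adjusted p = 0.0431). Atp6v1b1Cre replicate 15, from a male of 3 months, was the lowest of its group for 8 of the 10 genes, and Hoxb7Cre replicate 6, from a female, for 6 of the 10. The 10 genes made up 0.211% of the counts of the former and 0.217% of those of the latter, against medians of 0.457% and 0.377% in their groups. Without the former, the Trpv5 log2 fold change was 1.35 (adjusted p = 2.37e-07), and without the latter it was 1.16 (adjusted p = 4.8e-05).

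Total kidney RNA served as a check on the genotypes themselves. Between the 11 Atp6v1b1Cre and 10 Hoxb7Cre total RNA libraries none of the 10 genes passed in edgeR, and none had an unadjusted p under 0.05. Over all genes 0.194% passed. Trpv5 gave a log2 fold change of 0.10 ± 0.21 (adjusted p = 1) there, with a 95% interval of -0.33 to 0.53, and Slc12a3 gave 0.07 ± 0.25 (adjusted p = 1) (-0.44 to 0.58). Trpm6 gave 0.31 (adjusted p = 0.795), Klhl3 0.27 (adjusted p = 0.796) and Calb1 0.15 (adjusted p = 0.941). With each pulldown set against total RNA of its own genotype, the drivers differed by 0.36 (adjusted p = 0.735) in Trpm6 and by 0.42 (adjusted p = 0.547) in Calb1.

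Genes that act beside these 10 were counted from lists, against the 66.6% and 63.8% of all genes that passed with Hoxb7Cre and Atp6v1b1Cre. Of 10 genes of distal magnesium handling, 8 passed with Hoxb7Cre against total RNA (3 higher, 5 lower) and 7 with Atp6v1b1Cre (3 higher, 4 lower). Lower with both drivers were Pcbd1, an enzyme of tetrahydrobiopterin recycling (-3.49 and -3.43), Fxyd2, a regulatory subunit of the sodium pump (-2.47 and -2.39), and Egf, made in the distal tubule (-1.80 and -1.96). Of 9 genes of calcium transport and its hormones, 9 passed with each driver, 5 higher and 4 lower. S100g, which encodes the smaller calbindin, was lower (-4.20 and -2.92), as was the connecting tubule kallikrein Klk1 (-3.86 and -2.85). Of 10 other kinases, ligases and partners of NCC control, 8 passed with Hoxb7Cre (7 higher, 1 lower) and 6 with Atp6v1b1Cre (5 higher, 1 lower). The lower one was in each case Ppp1r1a, a phosphatase inhibitor (-3.02 and -2.79), and among the higher ones were Nedd4l, a ubiquitin ligase (1.19 and 1.24), and Wnk3 (1.21 and 1.15). Of 8 distal chloride channel and transcription factor genes, 8 passed with Hoxb7Cre (5 higher, 3 lower) and 7 with Atp6v1b1Cre (5 higher, 2 lower).

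Between the drivers, the apical calcium channels went opposite ways. Trpv6, the channel related to Trpv5, was lower with Atp6v1b1Cre, at -1.62 ± 0.19 (adjusted p = 9.01e-09), whereas Trpv5 was higher. S100g (1.29 ± 0.17, adjusted p = 9.82e-08) and Klk1 (1.01 ± 0.11, adjusted p = 4.37e-09) were higher. Against 9.93% of all genes (5.73% as higher), 5 of 9 passed in the calcium list (4 higher, 1 lower), in the magnesium list 1 of 10 (Slc41a3, a magnesium carrier, 0.60 ± 0.11, adjusted p = 7.32e-05), and among the NCC regulators 0 of 10 in edgeR, with 1 at an unadjusted p under 0.05. Of the chloride channel and transcription factor list 7 of 8 passed, 5 higher and 2 lower. Gata3, a transcription factor of the ureteric lineage, was lower (-0.90), as was Tfap2a (-0.81), and Emx1 was higher (0.76). The median log2 fold change of these lists was 0.33 for calcium, 0.10 for magnesium, -0.04 for NCC regulators and 0.48 for chloride channels and transcription factors, against -0.01 over all genes.

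Markers of neighbouring cell types moved beside these results. The summed level of 4 principal cell markers was 544, 735 and 977 CPM in total RNA (lowest, median and highest), 940.3, 1985 and 3017 with Hoxb7Cre and 338, 470.1 and 655 with Atp6v1b1Cre, and 4 of 4 were lower with Atp6v1b1Cre than with Hoxb7Cre. For 6 intercalated cell markers it was 292, 364 and 531, 464, 788 and 970.1 and 676, 1134 and 1547 CPM, and 5 of 6 were higher with Atp6v1b1Cre. Of all genes tested 9.93% passed between the drivers, and 5.73% passed as higher with Atp6v1b1Cre. Markers of segments outside both drivers summed to less in the pulldowns than in total RNA, but no marker was at 0 in every library. The 4 thick ascending limb markers summed to 5645, 7831 and 11019 CPM in total RNA, 981, 1511 and 2408 with Hoxb7Cre and 767, 1614 and 2188 with Atp6v1b1Cre, and 4 proximal tubule markers to 6814, 9926 and 13244, 1353, 1803 and 3175 and 1051, 1503 and 3059. Umod, the defining marker of the thick ascending limb, gave -3.16 and -3.38 against total RNA, and Slc34a1, the phosphate transporter of the proximal tubule, -2.87 and -2.95, so that Slc12a3 (-1.79 and -1.39) and Calb1 were less reduced, and Pvalb more. These differences between genes were not tested. Between the drivers 0 of 4 thick ascending limb and 0 of 4 proximal tubule markers passed in edgeR, with 1 and 0 at an unadjusted p under 0.05. The part of other cell types in the values of the 10 genes was not tested.

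Over the control pulldowns, the 3 podocyte markers summed to 114 to 190.1 CPM with Hoxb7Cre and 108.6 to 215 with Atp6v1b1Cre. The 4 endothelial markers summed to 77.5 to 157 CPM with Hoxb7Cre and 90.9 to 181 with Atp6v1b1Cre. The 4 smooth muscle markers summed to 31.4 to 66.9 CPM with Hoxb7Cre and 62.2 to 125 with Atp6v1b1Cre. The 4 skeletal muscle markers summed to 0.370 to 2.47 and 1.06 to 4.60 CPM, and the 3 brown fat markers summed to 5.66 to 66.9 and 9.37 to 48.6 CPM, and the 3 macrophage markers summed to 31.8 to 82.6 and 56.5 to 105.3 CPM. Between the drivers, where 9.93% of all genes passed and 5.73% as higher, 0 of 3 podocyte, 1 of 4 endothelial, 3 of 4 smooth muscle, 1 of 4 skeletal muscle, 0 of 3 brown fat and 2 of 3 macrophage markers passed, each of them higher with Atp6v1b1Cre. In edgeR 1 podocyte and 1 brown fat marker had an unadjusted p under 0.05. Pvalb is also a gene of fast skeletal muscle and of some neurons.

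In controls, the sexes differed in total RNA. Pvalb, Slc8a1 and Stk39 were lower in males, with log2 fold changes of -0.45 ± 0.17 (adjusted p = 0.0451), -0.51 ± 0.18 (adjusted p = 0.0309) and -0.39 ± 0.07 (adjusted p = 3.87e-05), and the other 7 had negative values that did not pass. Stk39 had 65.2, 76.9 and 82.4 CPM (lowest, median and highest) in 10 female libraries and 51.5, 55.8 and 65.7 in 11 male libraries, with overlap. Of the 11 male libraries, 10 lay below all female libraries in Stk39 and 9 in Slc8a1. The same held for 10 in Slc12a3 (-0.47, adjusted p = 0.135) and 8 in Klhl3 (-0.41, adjusted p = 0.0933). Over all genes 29.4% passed and 12.4% were lower in males. Stk39 passed with any 1 library left out, Slc8a1 did not pass without total RNA replicates 3, 12 or 16 (adjusted p = 0.0535 to 0.07), and Pvalb did not pass without total RNA replicates 2, 3, 4, 7, 8, 9, 12, 13, 14, 17, 18 or 21 (adjusted p = 0.0519 to 0.107). With library totals in place of TMM all 10 genes were lower in males, and the median of all genes moved to -0.195. In the control pulldowns none of the 10 passed in edgeR with Hoxb7Cre (0 at an unadjusted p under 0.05), where 10.3% of all genes did, or with Atp6v1b1Cre (1 at an unadjusted p under 0.05), where 4.08% did. Slc12a3 passed as higher in males with Hoxb7Cre without Hoxb7Cre control replicate 1 (adjusted p = 0.0309), and Stk39 as lower with Atp6v1b1Cre without Atp6v1b1Cre control replicate 7 (adjusted p = 0.0453).

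The response to injury was tested in the 22 male pulldowns of 5.5 months, with 4 control, 4 ischemia and 3 volume depletion libraries of Hoxb7Cre and 4, 3 and 4 of Atp6v1b1Cre. Both injuries of a driver share its controls. With Hoxb7Cre 5 of the 10 genes were lower after volume depletion, against 17.6% of all genes (35.5% passed in either direction), and with Atp6v1b1Cre 6 of the 10 were lower, against 6.47% (14.6%). After ischemia 1 of the 10 was lower with Hoxb7Cre (2.79% of all genes, 6.13% in either direction) and 2 of the 10 with Atp6v1b1Cre (4.74% and 8.51%). None of the 10 was higher in any of these 4 comparisons in edgeR. After ischemia Slc12a3 passed as higher with Hoxb7Cre in the fit of all 69 libraries, at 0.91 (adjusted p = 0.0179), and with a replicate block, at 0.84 (adjusted p = 0.0221), and Stk39 passed as higher with Atp6v1b1Cre in that fit, at 0.39 (adjusted p = 0.00448), and with both sexes together, at 0.39 (adjusted p = 0.0353).

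**Figure D3:**
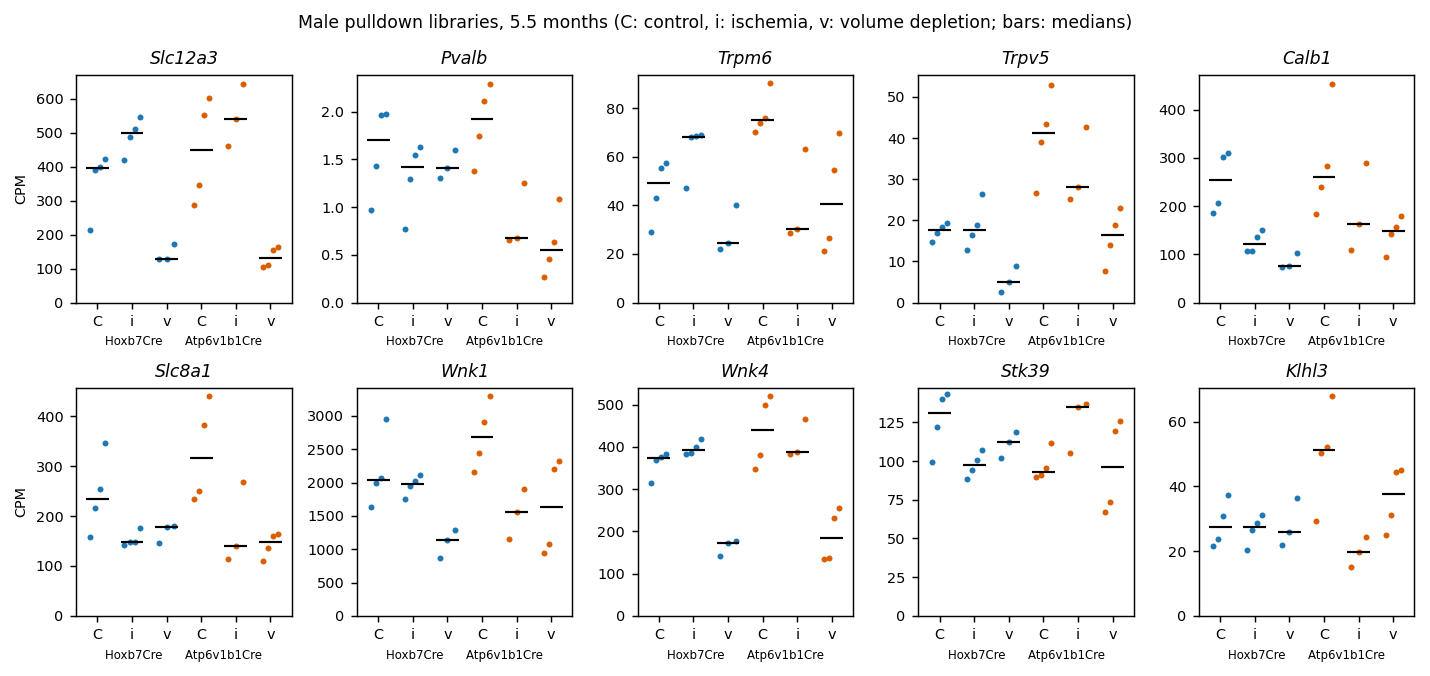
Level of each gene in the 22 male pulldown libraries, in CPM on linear axes from 0, for control (C), ischemia (i) and volume depletion (v) with each driver; points are libraries and bars are medians. Slc12a3 after volume depletion lies between 105.4 and 171 CPM with both drivers, below every control, whereas after ischemia it lies between 419 and 644 CPM.

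Slc12a3 and Wnk4, the genes of NCC and WNK4, were lower after volume depletion with both drivers. Slc12a3 in Hoxb7Cre pulldowns had 214, 391, 399 and 423 CPM in controls and 127, 128 and 171 after volume depletion, and fell by 1.32 ± 0.25 (adjusted p = 0.000281) on the log2 scale. In Atp6v1b1Cre pulldowns it had 286, 345, 553 and 602 CPM in controls and 105.4, 111, 154 and 162 after volume depletion, and fell by 1.73 ± 0.23 (adjusted p = 5.9e-05). The groups did not overlap with either driver. Wnk4 with Hoxb7Cre had 314, 369.7, 376 and 384 CPM in controls and 141, 172 and 177 after volume depletion, and fell by 1.14 ± 0.20 (adjusted p = 9.82e-05). With Atp6v1b1Cre it had 347, 381, 499 and 521 and 134, 138, 233 and 254 CPM, and fell by 1.19 ± 0.18 (adjusted p = 0.000211), again without overlap. Both calls held with any 1 library left out. With Hoxb7Cre the Slc12a3 call was lost with both sexes together, at -0.42 (adjusted p = 0.376), and in the fit of all 69 libraries, at -0.38 (adjusted p = 0.324), whereas Wnk4 passed in both.

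Trpv5 and Calb1 were also lower with both drivers. Trpv5 with Hoxb7Cre had 14.6, 16.9, 18.5 and 19.3 CPM in controls and 2.63, 5.10 and 8.81 after volume depletion, and with Atp6v1b1Cre 26.6, 39.1, 43.3 and 52.9 and 7.67, 14.01, 18.8 and 23.1. Volume-depleted libraries lay below their controls with both drivers, and the log2 fold changes were -1.66 ± 0.36 (adjusted p = 0.000975) and -1.32 ± 0.31 (adjusted p = 0.00678). With both sexes together the Hoxb7Cre value was -0.41 (adjusted p = 0.434), in the fit of all 69 libraries it was -0.49 (adjusted p = 0.223), and with Atp6v1b1Cre adding the males of 3 months gave -1.01 (adjusted p = 0.0549). Calb1 with Hoxb7Cre had 185, 206, 302 and 309 CPM in controls and 74.7, 76.5 and 101.7 after volume depletion, and with Atp6v1b1Cre 184, 239, 283 and 454 and 93.6, 142, 156 and 179. Its log2 fold changes were -1.56 ± 0.31 (adjusted p = 0.000378) and -1.01 ± 0.27 (adjusted p = 0.0164), and with Atp6v1b1Cre it did not pass without Atp6v1b1Cre control replicate 10 or Atp6v1b1Cre vAKI replicate 6 (adjusted p = 0.0685 to 0.0917). With both sexes together Calb1 gave -0.67 (adjusted p = 0.129) with Hoxb7Cre. Slc8a1 with Atp6v1b1Cre had 235, 249, 383 and 441 CPM in controls and 109.4, 136, 161 and 163 after volume depletion, with no overlap, and fell by 1.18 ± 0.25 (adjusted p = 0.00286). With Hoxb7Cre it had 157, 216, 254 and 346 and 147, 178 and 179 CPM, with overlap and a log2 fold change of -0.53 ± 0.27 (adjusted p = 0.13), which passed without Hoxb7Cre control replicate 4 (adjusted p = 0.0499).

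Wnk1 with Hoxb7Cre had 1640.2, 1996, 2071 and 2956 CPM in controls and 869, 1142 and 1284 after volume depletion, and was lower, at -0.97 ± 0.28 (adjusted p = 0.0078). The groups did not overlap, and the call was lost without Hoxb7Cre vAKI replicate 7 (adjusted p = 0.0521), with both sexes together, at -0.35 (adjusted p = 0.376), in the fit of all 69 libraries, at -0.33 (adjusted p = 0.274), and with a replicate block, at -0.63 (adjusted p = 0.0624). With Atp6v1b1Cre it had 2163, 2442, 2912 and 3301 and 939, 1072, 2208 and 2330.5 CPM, and gave -0.71 ± 0.25 (adjusted p = 0.0604), which passed without Atp6v1b1Cre control replicate 11 or Atp6v1b1Cre vAKI replicates 1 or 2 (adjusted p = 0.0192 to 0.0456). It passed as lower in 8 of 13 alternatives of processing and sample choice. Pvalb with Atp6v1b1Cre had 1.38, 1.74, 2.11 and 2.29 CPM in controls and 0.265, 0.458, 0.637 and 1.09 after volume depletion (from 8 to 17 counts a library), and fell by 1.68 ± 0.36 (adjusted p = 0.00366). With a replicate block it gave -0.67 (adjusted p = 0.413). With Hoxb7Cre it gave -0.13 ± 0.36 (adjusted p = 0.845). Trpm6 gave -0.68 ± 0.34 (adjusted p = 0.132) with Hoxb7Cre and -0.83 ± 0.31 (adjusted p = 0.0793) with Atp6v1b1Cre, where it passed without Atp6v1b1Cre vAKI replicates 1 or 2 (adjusted p = 0.0173 to 0.0493) and in 5 of 13 alternatives. Stk39 gave -0.18 ± 0.18 (adjusted p = 0.481) and 0.01 ± 0.17 (adjusted p = 1), and Klhl3 -0.01 ± 0.26 (adjusted p = 1) and -0.43 ± 0.24 (adjusted p = 0.246). In all, volume-depleted and control libraries did not overlap in 5 of the 10 genes with Hoxb7Cre, against 39.5% of all genes, and in 7 of the 10 with Atp6v1b1Cre, against 14.5%. All injured Hoxb7Cre libraries carry numbers of the first run. Against the 2 male controls of that run, the mean log2 difference was -1.55 for Slc12a3, -1.82 for Trpv5, -1.87 for Calb1 and -1.23 for Wnk4. With Atp6v1b1Cre the first and second run, with 2 volume-depleted and 2 control libraries in each, gave -1.33 and -2.08 for Slc12a3, and -0.85 and -1.98 for Trpv5.

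After ischemia, Slc12a3, Wnk1, Wnk4 and Stk39 did not pass in the fit of the 22 male pulldowns. Slc12a3 had 419, 486, 512 and 545 CPM with Hoxb7Cre and 459, 539 and 644 with Atp6v1b1Cre, and gave 0.47 ± 0.22 (adjusted p = 0.234) and 0.29 ± 0.24 (adjusted p = 0.51). Wnk4 had 384, 387, 399 and 418 and 383, 388 and 466 CPM, and gave 0.15 ± 0.18 (adjusted p = 0.685) and -0.09 ± 0.19 (adjusted p = 0.844). All 4 Hoxb7Cre libraries after ischemia lay above the highest control in Wnk4, by little. Calb1 was lower with Hoxb7Cre, where it had 105.96, 107.9, 135 and 151 CPM, below all controls, and fell by 0.99 ± 0.27 (adjusted p = 0.0337). This call was lost without Hoxb7Cre control replicates 2 or 3 or Hoxb7Cre iAKI replicates 4, 5 or 7 (adjusted p = 0.058 to 0.106), with both sexes together, at -0.47 (adjusted p = 0.402), in the fit of all 69 libraries, at -0.50 (adjusted p = 0.191), and with a replicate block, at -0.74 (adjusted p = 0.058). With Atp6v1b1Cre Calb1 had 108.8, 162 and 289 CPM and gave -0.65 ± 0.30 (adjusted p = 0.182). Klhl3 was lower with Atp6v1b1Cre. It had 29.3, 50.3, 52.2 and 67.8 CPM in controls and 15.03, 19.6 and 24.5 after ischemia, without overlap, and fell by 1.35 ± 0.27 (adjusted p = 0.00444), and it passed with any 1 library left out but not with a replicate block, at -1.73 (adjusted p = 0.0712). These ischemic and control Atp6v1b1Cre libraries share no replicate number. For them the block compares the groups only through libraries of other groups. With Hoxb7Cre Klhl3 had 21.6, 23.8, 30.9 and 37.4 and 20.3, 26.4, 28.6 and 31.1 CPM and gave -0.08 ± 0.24 (adjusted p = 0.922). Slc8a1 with Atp6v1b1Cre had 113, 141 and 268 CPM and fell by 0.92 ± 0.27 (adjusted p = 0.0348), a call lost without Atp6v1b1Cre control replicates 6 or 10 or Atp6v1b1Cre iAKI replicates 4 or 5 (adjusted p = 0.0785 to 0.159), with both sexes together, at -0.55 (adjusted p = 0.17), and with a replicate block, at -1.01 (adjusted p = 0.246).

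Trpv5 gave 0.12 ± 0.31 (adjusted p = 0.908) with Hoxb7Cre and -0.35 ± 0.33 (adjusted p = 0.569) with Atp6v1b1Cre after ischemia, and Wnk1 -0.13 ± 0.25 (adjusted p = 0.836) and -0.82 ± 0.27 (adjusted p = 0.063). Trpm6 gave 0.46 ± 0.31 (adjusted p = 0.433) and -0.94 ± 0.34 (adjusted p = 0.0906), and Pvalb -0.26 ± 0.34 (adjusted p = 0.721) and -1.15 ± 0.38 (adjusted p = 0.0592). Slc8a1 with Hoxb7Cre gave -0.65 ± 0.24 (adjusted p = 0.116). Stk39 gave -0.35 ± 0.17 (adjusted p = 0.229) and 0.36 ± 0.18 (adjusted p = 0.216). With Atp6v1b1Cre, Pvalb passed without Atp6v1b1Cre iAKI replicate 4 (adjusted p = 0.0499) and Trpm6 without Atp6v1b1Cre iAKI replicate 5 (adjusted p = 0.0217). Of 13 alternatives of processing and sample choice with Atp6v1b1Cre, Wnk1 passed as lower in 3, Pvalb in 3 and Trpm6 in 4. Wnk1 gave -0.83 (adjusted p = 0.021) in DESeq2 and -0.95 (adjusted p = 0.00408) with a covariate for the runs of library numbers. Ischemic and control libraries did not overlap in 2 of the 10 genes with Hoxb7Cre, Calb1 below and Wnk4 above, against 15.9% of all genes, and in 4 of the 10 with Atp6v1b1Cre, Pvalb, Trpm6, Wnk1 and Klhl3 below, against 20.6%. Within the first run of library numbers, Klhl3 with Atp6v1b1Cre differed by -1.03 on the log2 scale, in 2 ischemic against 2 control libraries. Within the second run it differed by -1.57, in 1 ischemic library against 2 controls.

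**Figure D4:**
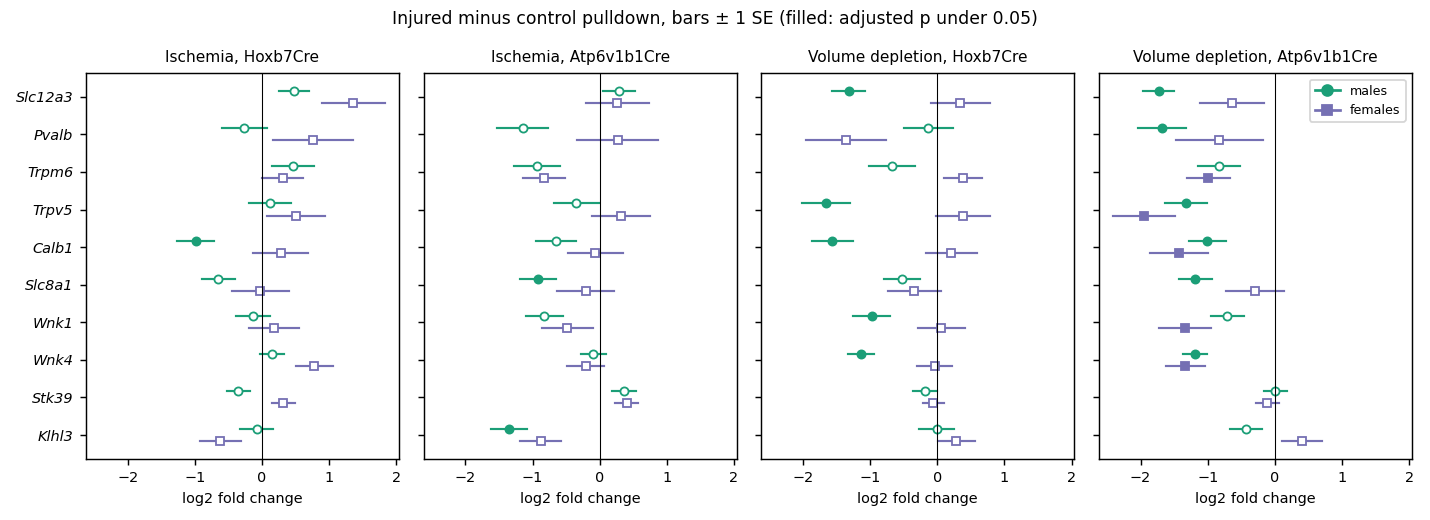
Log2 fold change of each gene after ischemia and after volume depletion with each driver, in males (circles, 22 libraries) and in females (squares, 21 libraries), with bars of 1 SE; filled symbols passed at an adjusted p under 0.05. With Hoxb7Cre in volume depletion, Slc12a3 lies at -1.32 in males and 0.34 in females, and Trpv5 at -1.66 and 0.38.

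The 2 injuries were compared with each other. With Hoxb7Cre 5 of the 10 genes were lower in volume depletion than in ischemia, against 16.9% of all genes (33.3% in either direction): Slc12a3 (-1.80 ± 0.26, adjusted p = 1.58e-05), Trpv5 (-1.77 ± 0.36, adjusted p = 0.000599), Wnk4 (-1.29 ± 0.20, adjusted p = 3.19e-05), Trpm6 (-1.14 ± 0.35, adjusted p = 0.0134) and Wnk1 (-0.84 ± 0.27, adjusted p = 0.0206). Trpm6 did not pass without Hoxb7Cre vAKI replicates 6 or 7 (adjusted p = 0.0641 to 0.0776), nor Wnk1 without Hoxb7Cre vAKI replicates 6 or 7 (adjusted p = 0.0521 to 0.109). With Atp6v1b1Cre 4 of the 10 passed, against 29.3% of all genes. Slc12a3 (-2.01 ± 0.24, adjusted p = 5.28e-06), Wnk4 (-1.09 ± 0.19, adjusted p = 0.000183) and Trpv5 (-0.98 ± 0.33, adjusted p = 0.0282) were lower, and Klhl3 was higher (0.92 ± 0.27, adjusted p = 0.0122). Trpv5 did not pass without Atp6v1b1Cre iAKI replicate 1 or Atp6v1b1Cre vAKI replicates 6 or 7 (adjusted p = 0.0545 to 0.159), Klhl3 did not pass without Atp6v1b1Cre iAKI replicate 4 (adjusted p = 0.0845), and Stk39 passed as lower without Atp6v1b1Cre vAKI replicate 7 (adjusted p = 0.0307).

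The response itself was then compared between the drivers. For ischemia, 7.79% of all genes passed. Of the 10 genes Klhl3 passed, with a log2 difference (Atp6v1b1Cre minus Hoxb7Cre response) of -1.27 ± 0.36 (adjusted p = 0.0335), and the call was lost without Atp6v1b1Cre control replicates 10 or 11, Hoxb7Cre control replicates 3 or 4, Atp6v1b1Cre iAKI replicate 4 or Hoxb7Cre iAKI replicates 4, 6 or 7 (adjusted p = 0.0556 to 0.11). Trpm6 passed without Atp6v1b1Cre iAKI replicate 5 (adjusted p = 0.013) and Stk39 without Hoxb7Cre control replicate 5 or Atp6v1b1Cre iAKI replicate 5 (adjusted p = 0.0331 to 0.0443). For volume depletion 4.2% of all genes passed and none of the 10 did in edgeR (1 at an unadjusted p under 0.05), where Slc12a3 gave -0.41 ± 0.33 (adjusted p = 0.56) with a 95% interval of -1.09 to 0.28 and Pvalb gave -1.55 ± 0.51 (adjusted p = 0.0862). Pvalb passed without Atp6v1b1Cre vAKI replicate 6 (adjusted p = 0.0243).

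Among the listed partners, Sgk1, the aldosterone-induced kinase, was higher after volume depletion, by 1.93 ± 0.30 (adjusted p = 3.64e-05) with Hoxb7Cre and 2.06 ± 0.29 (adjusted p = 0.000104) with Atp6v1b1Cre. Cab39l, a scaffold protein of SPAK, was lower with both, at -1.38 and -0.61. Against 35.5% of all genes with Hoxb7Cre and 14.6% with Atp6v1b1Cre, 4 of the 10 NCC regulators passed with Hoxb7Cre (1 higher, 3 lower) and 2 with Atp6v1b1Cre (1 higher, 1 lower). In the calcium list 4 of 9 passed with Hoxb7Cre (1 higher, 3 lower) and 6 of 9 with Atp6v1b1Cre (2 higher, 4 lower). Casr, the calcium-sensing receptor, was lower with both (-1.17 and -1.07), and Trpv6 was higher with Atp6v1b1Cre (1.78 ± 0.37, adjusted p = 0.00302), where Trpv5 was lower. In the magnesium list 6 of 10 passed with Hoxb7Cre (1 higher, 5 lower), with the basolateral potassium channel gene Kcnj16 at -1.41 and Egf at -1.25, and 2 of 10 with Atp6v1b1Cre, both lower, Kcnj10 (-0.83) and Kcnj16 (-0.69). Of the chloride channel and transcription factor list 3 of 8 passed with Hoxb7Cre (1 higher, 2 lower) and 2 of 8 with Atp6v1b1Cre, both lower. Tfap2b, a transcription factor of the distal convoluted tubule, was lower with both (-1.65 and -0.97).

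After ischemia, 6.13% of all genes passed with Hoxb7Cre and 8.51% with Atp6v1b1Cre. Among the partners Egf was lower with both drivers, at -1.56 ± 0.31 (adjusted p = 0.00568) with Hoxb7Cre and -1.46 ± 0.35 (adjusted p = 0.0119) with Atp6v1b1Cre. It was the 1 magnesium gene to pass with Hoxb7Cre, and with Atp6v1b1Cre 3 passed, all lower, with Kcna1, a potassium channel of the distal convoluted tubule, at -1.42 and Trpm7 at -0.65. In the calcium list 0 of 9 passed with Hoxb7Cre in edgeR (2 at an unadjusted p under 0.05) and 1 of 9 with Atp6v1b1Cre, S100g, which was lower (-0.94). Of the NCC regulators 1 passed with each, Cab39l lower with Hoxb7Cre (-0.57) and Ppp1r1a higher with Atp6v1b1Cre (1.37). In the chloride channel and transcription factor list Gata3 was lower with Hoxb7Cre (-0.86), and 0 of 8 passed in edgeR with Atp6v1b1Cre (0 at an unadjusted p under 0.05).

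Markers of other segments also moved with injury in males. The 4 thick ascending limb markers summed to 1387 to 2393 CPM in Hoxb7Cre controls, 1833 to 2078 after ischemia and 791 to 875 after volume depletion, and to 1023 to 2053, 1919 to 3295 and 900.5 to 1041 with Atp6v1b1Cre. After volume depletion 3 of these 4 passed as lower with Hoxb7Cre and 2 of 4 with Atp6v1b1Cre, against 17.6% and 6.47% of all genes. All 4 principal cell markers were lower with Hoxb7Cre after ischemia (2.79% of all genes were) and after volume depletion, and 3 of 6 intercalated cell markers were lower after volume depletion with each driver. Their part in the lower values of the 10 genes was not tested.

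**Figure D5:**
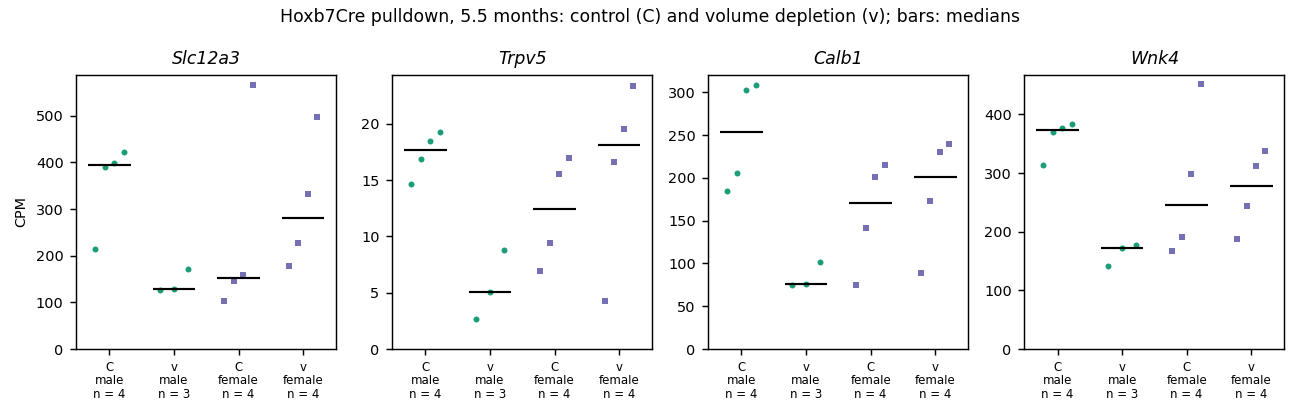
Slc12a3, Trpv5, Calb1 and Wnk4 in Hoxb7Cre pulldowns of control (C) and volume-depleted (v) mice of 5.5 months, males (circles) and females (squares), in CPM from 0; points are libraries and bars are medians. In males the volume-depleted libraries lie below all controls, and in females the 2 groups overlap in all 4 genes.

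In females with Hoxb7Cre these genes did not pass. The study presents males because its females varied more in gene expression. Here edgeR's common dispersion, a measure of spread between libraries, was 0.0782 in the female fit and 0.0444 in the male fit. After volume depletion none of the 10 genes passed in the 4 female Hoxb7Cre libraries against 4 controls, with 1 at an unadjusted p under 0.05, where 0.109% of all genes passed in edgeR. Slc12a3 had 102.3, 146, 159.7 and 565 CPM in female controls and 179, 228, 332 and 497 after volume depletion, and Trpv5 had 6.91, 9.39, 15.5 and 16.9 and 4.22, 16.6, 19.5 and 23.3. Calb1 had 74.9, 142, 201 and 216 and 89.05, 173, 229.9 and 239.6 CPM, and Wnk4 had 167, 191, 299 and 452 and 187, 244, 312 and 338. The groups overlapped in each, and the log2 fold changes were 0.34 ± 0.44 (adjusted p = 0.886) for Slc12a3, 0.38 ± 0.41 (adjusted p = 0.837) for Trpv5, 0.21 ± 0.38 (adjusted p = 0.949) for Calb1 and -0.04 ± 0.26 (adjusted p = 1) for Wnk4. The difference of the male and female response passed for these 4 genes, against 16% of all genes in either direction and 8.51% as lower in males. It was -1.66 ± 0.54 (adjusted p = 0.0341) for Slc12a3, -2.03 ± 0.58 (adjusted p = 0.0174) for Trpv5, -1.77 ± 0.52 (adjusted p = 0.0205) for Calb1 and -1.10 ± 0.33 (adjusted p = 0.0238) for Wnk4. With 1 of the 15 libraries left out, between 0 and 6 of the 10 genes passed. Slc12a3 did not pass without Hoxb7Cre control replicates 2, 3, 5, 6, 9 or 10 or Hoxb7Cre vAKI replicates 1, 3, 6 or 7 (adjusted p = 0.0502 to 0.109), Trpv5 without Hoxb7Cre vAKI replicates 1 or 7 (adjusted p = 0.0532 to 0.0683), Calb1 without Hoxb7Cre control replicate 6 or Hoxb7Cre vAKI replicates 1, 6 or 7 (adjusted p = 0.0524 to 0.0573), and Wnk4 without Hoxb7Cre control replicates 6 or 9 or Hoxb7Cre vAKI replicates 1, 3 or 4 (adjusted p = 0.0597 to 0.0669). Pvalb passed as higher in males without Hoxb7Cre vAKI replicate 5 (adjusted p = 0.0232), and Trpm6 and Wnk1 passed as lower without Hoxb7Cre control replicate 1 (adjusted p = 0.0297) and Hoxb7Cre control replicate 1 or Hoxb7Cre vAKI replicate 5 (adjusted p = 0.0323 to 0.035).

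With Atp6v1b1Cre, 5 of the 10 genes were lower after volume depletion in females, in 3 libraries against 4 controls, where 18% of all genes passed. These were Trpv5 (-1.95 ± 0.46, adjusted p = 0.00866), Calb1 (-1.43 ± 0.43, adjusted p = 0.026), Wnk1 (-1.34 ± 0.39, adjusted p = 0.0229), Wnk4 (-1.34 ± 0.29, adjusted p = 0.00572) and Trpm6 (-0.99 ± 0.32, adjusted p = 0.0358). Slc12a3 had 192, 351, 379 and 757 CPM in female Atp6v1b1Cre controls and 253, 270.4 and 286 after volume depletion, and gave -0.64 ± 0.48 (adjusted p = 0.381). Trpv5 had 25.6, 28.2, 42.1 and 70.96 and 8.18, 11.5 and 12.7 CPM. The volume depletion responses of females were also compared between the drivers. None of the 10 genes passed as different in edgeR, against 0% of all genes. Of the 10, 5 had an unadjusted p under 0.05, and the lowest adjusted p was 0.0951, for Trpv5. After ischemia none of the 10 passed in females in edgeR with Hoxb7Cre (3.14% of all genes) or with Atp6v1b1Cre (2.66%), with 2 and 3 of the 10 at an unadjusted p under 0.05. The male and female responses to ischemia passed as different in none of the 10 genes with Hoxb7Cre in edgeR (2 at an unadjusted p under 0.05), against 10.5% of all genes. With Atp6v1b1Cre the test of the sexes passed in 0% of all genes for ischemia and 0% for volume depletion, so that none of the 10 passed in edgeR, with 0 and 2 of them at an unadjusted p under 0.05.

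Across the 21 total RNA libraries of controls, the genes whose log2 CPM was most like that of Slc12a3 among 11449 genes were Scnn1b (0.91), Spns2 (0.89), Eif2s3x (0.89), Abcc4 (0.88) and Cadps2 (0.86), with Pearson's r in parentheses. The first of them encodes a subunit of the epithelial sodium channel. The nearest of the other 9 genes was Klhl3, at rank 10 (0.84). The genes most like Calb1 were Ermp1 (0.87), Slc16a7 (0.86), Cldn8 (0.85), Tmem171 (0.84) and Pla2g7 (0.84), and the nearest of the other 9 was Slc8a1, at rank 28 (0.79). Across the 21 control pulldowns and 11170 genes, those most like Slc12a3 were Slc4a3 (0.96), Atp6v0a1 (0.94), Phka2 (0.92), Trappc12 (0.92) and Gtf3c2 (0.92), with Wnk4 at rank 56 (0.87). Those most like Calb1 were Samhd1 (0.91), Aif1l (0.90), Tmem52b (0.89), Kcnj10 (0.88) and Nudt4 (0.88), with Wnk4 at rank 11 (0.85) and Trpv5 at rank 21 (0.82). These values describe libraries that share sex, driver and library number runs, and no test was made of them.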

How the data were processed

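RNA-Seq of 69 mouse kidney libraries was used. The deposited values were raw read counts per gene, which the authors made with CASAVA 1.8.2, Trimmomatic 0.36, STAR 2.5.3a (mm10) and HTSeq 0.6.1p2 at its default settings, from poly(A) RNA in a TruSeq kit whose strand handling is not stated. The annotation they counted is not given in the sources used here. Reads that genes on opposite strands share may therefore be counted for either or lost.

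Groups followed the sample titles. Genes whose counts summed to 2 or more were tested in edgeR 4.0.16 (R 4.3.3), with TMM scaling, the quasi-likelihood test and Benjamini-Hochberg adjustment over 21175 genes. Control comparisons used the 42 control libraries with sex as a covariate, and injury comparisons the 22 male pulldowns of 5.5 months, which the study also presented. The males' and females' responses were compared in 1 fit of 43 pulldowns, a test added after the data were seen. CPM used TMM factors over all libraries, and log2 CPM a prior count of 2. Levels per kilobase used the longest transcript marked CCDS or APPRIS principal in GENCODE. Promoters came from RefSeq (GRCm38.p6). The tests between the drivers, of volume depletion with Hoxb7Cre and of ischemia with Atp6v1b1Cre were checked on simulated counts. Few genes were changed in them, so the comparisons with total RNA, where most genes passed, were not covered.

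Some results on listed genes are not reported here. The 10 genes and the lists were chosen with earlier results of these data known. Named beside the 10 were up to 3 passing genes per list and comparison with the largest log2 fold change, and the 5 genes most like Slc12a3 and Calb1 among those with at least 5 CPM. Alternatives were DESeq2 1.42.0, its size factors, library totals, other filters, subsets of mice, a covariate for the runs of library numbers, a replicate block and leaving out each library. No library pair of a group agreed within sampling noise. At depths above 12618062 counts per library, 1 count was worth less than 0.1 CPM, and the intervals printed cover the spread between libraries.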

Additional observations from a re-analysis of the deposited data

Results flagged for a closer look

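Single libraries stood apart from the rest of their group in 4 of 90 combinations of gene and group (4.44%, over 9 groups of 4 to 10 libraries), judged by the gap to the nearest library as a share of the group's range. Chance gives such a gap in about 1 in 20 groups. Klhl3 in Hoxb7Cre control replicate 1 was at 64.4 CPM, with the next library at 39.6. Slc12a3 in the male Hoxb7Cre control replicate 4 was at 214 CPM, with the next at 391. Trpv5 in Hoxb7Cre iAKI replicate 5 was at 26.5 CPM, with the next at 18.7, and Trpm6 in Hoxb7Cre iAKI replicate 7, among the males, was at 47.1 CPM, with the next at 68.2.

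The response to the same injury differed between groups in 5 tests. Klhl3 responded differently to ischemia with the drivers, with a difference of -1.27 on the log2 scale (Atp6v1b1Cre minus Hoxb7Cre). The Hoxb7Cre response to volume depletion differed between males and females, with differences (male minus female) of -1.66 for Slc12a3, -2.03 for Trpv5, -1.77 for Calb1 and -1.10 for Wnk4. Each of these calls was lost when some single libraries were left out.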

How the results depend on the processing

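Counts of the 10 genes that passed were recomputed under each alternative. The test of male against female responses with its own left-out libraries, the age covariate and the values within runs of library numbers were added after the data were seen. Leaving out 1 library gave 8 to 9 for Hoxb7Cre pulldown against total RNA, 10 to 10 for Atp6v1b1Cre against total RNA, 1 to 4 between the drivers, 0 to 0 between genotypes in total RNA, 0 to 1 for ischemia and 4 to 6 for volume depletion with Hoxb7Cre, 1 to 2 and 5 to 8 with Atp6v1b1Cre, 0 to 3 and 0 to 1 for the drivers' difference in response to ischemia and to volume depletion, 3 to 5 and 3 to 4 for volume depletion against ischemia with Hoxb7Cre and Atp6v1b1Cre, and 1 to 4, 0 to 1 and 0 to 1 for the sexes in total RNA, Hoxb7Cre and Atp6v1b1Cre controls. The male against female response to volume depletion with Hoxb7Cre gave 0 to 6.

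Asking for a log2 fold change of at least 1 left 4 for Hoxb7Cre and 5 for Atp6v1b1Cre against total RNA, 1 between the drivers, 0 and 1 for ischemia with Hoxb7Cre and Atp6v1b1Cre, 2 for volume depletion against ischemia with Atp6v1b1Cre and 0 for the sexes in total RNA. A covariate for the runs of library numbers gave 5 between the drivers, 2 for ischemia with Hoxb7Cre, 3 for the difference of the ischemia responses, 1 for that of the volume depletion responses and 5 for the sexes in total RNA. Setting each pulldown against total RNA of its own genotype gave 1 between the drivers. Both sexes together gave 0 for ischemia, 1 for volume depletion and 2 for volume depletion against ischemia with Hoxb7Cre, and females alone gave 0 for each of these, for ischemia with Atp6v1b1Cre and for the difference of the ischemia responses. A fit of all 69 libraries gave 2 for volume depletion and 3 for volume depletion against ischemia with Hoxb7Cre, and 7 for the latter with Atp6v1b1Cre. DESeq2 gave 5 for ischemia with Atp6v1b1Cre, 3 for the difference of the ischemia responses and 1 for that of the volume depletion responses, as did adding the males of 3 months for the last. Library totals without TMM gave 2 for the difference of the ischemia responses and 10 for the sexes in total RNA. They moved the median of all genes from 0.107 to 0.472 for Hoxb7Cre and to 0.498 for Atp6v1b1Cre against total RNA, with 6 of the 10 genes higher and 3 lower for Hoxb7Cre in place of 5 and 4.

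Some values changed sign where either the reported fit or the alternative passed, and none passed in both directions. Pvalb in volume depletion against ischemia with Hoxb7Cre passed only in the fit of all 69 libraries, at -0.98 (adjusted p = 0.0245). The others passed as lower in males and did not pass, with a positive sign, in females in place of males with Hoxb7Cre. These were Calb1 after ischemia (0.28, adjusted p = 0.731), Slc12a3 (0.34), Trpv5 (0.38), Calb1 (0.21) and Wnk1 (0.0627) after volume depletion, and Trpm6 in volume depletion against ischemia (0.0795). Among the values of single genes with 1 library left out, 2252 kept direction and side of the threshold, 82 lost a call and 26 gained one, and under the other alternatives 1623 kept both, 83 lost a call and 67 gained one. Changes of sign in values that never passed are not counted here. The cause of these changes was not tested.

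Replicate numbers are shared between groups, but no source ties a number to a mouse. Over 21 pairs of a control pulldown and a total RNA library with 1 number, 15 differed in driver, sex or age (r of their deviations from the group means -0.40 to 0.34, median -0.21) and 6 matched in all of these (0.49 to 0.58, median 0.51), against -0.08 to 0.71 (median 0.32) over 71 matching pairs with different numbers. This split was made after the data were seen, and it does not show whether these libraries share mice. The replicate block gave 0 for ischemia with Atp6v1b1Cre, 0 for the difference of the ischemia responses and 1 for the sexes in total RNA, and between the drivers it gave 3, with Trpm6 and Calb1 lost and Wnk4 and Klhl3 gained. It gave 1 for ischemia with Hoxb7Cre, with Calb1 lost and Slc12a3 gained as higher, and gave 7 for volume depletion with Atp6v1b1Cre, with Pvalb lost and Trpm6 and Wnk1 gained. The ischemic and control male Atp6v1b1Cre libraries share no replicate number. The 0 for ischemia with Atp6v1b1Cre therefore rests on links through other groups and cannot show what pairing would change.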
